A study of Arabidopsis thaliana with 4 samples.

Results

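AT2G43600, AT2G43610 and AT2G43620 are chitinase family genes that stand in this order on chromosome 2 of Arabidopsis thaliana. Probe sets were taken whose single annotated gene was one of these 3 loci, which gave 1 probe set for each gene, 3 of the 13286 genes that a single-gene probe set of the array could be matched to. They were compared between sorted protoplasts and whole roots. Both groups were roots of Columbia seedlings, 6 days after germination, grown on standard medium and then given 1 hour on medium containing 140 mM NaCl. In sorted protoplasts (n = 2) the walls of these roots were digested and the released cells were passed through a fluorescence-activated cell sorter that kept every cell. In whole roots (n = 2) RNA was taken from intact roots, and there is no group without salt among the arrays analysed here. RNA was amplified in 2 cycles and hybridized to ATH1 arrays.

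Chitinases cut chitin, the polymer of N-acetylglucosamine in fungal cell walls, which plants themselves do not make. Plant chitinases fall into glycoside hydrolase families 19 (GH19) and 18 (GH18). Several are classed as pathogenesis-related proteins, and the fragments they release can be sensed by receptor complexes of the plant surface that signal through kinases to transcription factors. Many GH19 genes occur as tandem copies, and the 3 genes described here belong to such a run, together with CHI (AT2G43570), AT2G43580 and AT2G43590 before them.

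The values are MAS5 signal intensities, in arbitrary units, scaled to the same trimmed mean on every array. Median signals were 80.7 and 79.0 on the sorted-protoplast arrays and 82.3 and 90.2 on the whole-root arrays. Pearson's r over the log2 signals of the 13647 tested probe sets was 0.910 between the sorted-protoplast arrays and 0.938 between the whole-root arrays, across probe sets that are not independent replicates. The ratio of 3' to 5' GAPDH signal, a common sign of RNA integrity, was 3.45 and 9.96 in sorted protoplasts and 15.0 and 4.56 in whole roots, so it varied within both groups and was highest in whole-root replicate 1. The root hair expansin genes EXPA7 and EXPA18 had signals of 161 to 222 and 121 to 150 in sorted protoplasts, and of 607 to 1001 and 741 to 812 in whole roots, so these root markers were present in both groups. With 2 arrays a group the number of arrays limits the precision, and the labels do not say whether replicates came from separate plantings, so errors and p-values cover a spread among samples that could be technical.

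All 3 chitinase genes had higher signals in sorted protoplasts, with ratios of the group means between 3.50 and 4.66. AT2G43610 had signals of 4523 and 8619 in sorted protoplasts (mean 6571 ± 2896, SD, n = 2), against 1959 and 1796 in whole roots (mean 1877 ± 115, SD, n = 2). Both sorted-protoplast arrays lay above both whole-root arrays, and the ratio of the group means was 3.50. The whole-root values were close to each other, while the sorted-protoplast values were far apart.

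AT2G43600 had signals of 610 and 891 in sorted protoplasts (mean 751 ± 199, SD, n = 2), against 237 and 184 in whole roots (mean 210.3 ± 37.0, SD, n = 2). The groups did not overlap, and the ratio of means was 3.57. AT2G43620 had signals of 103 and 230.5 in sorted protoplasts (mean 167 ± 89.8, SD, n = 2), against 29.0 and 42.6 in whole roots (mean 35.8 ± 9.65, SD, n = 2). Its groups did not overlap either, with a ratio of means of 4.66, but both whole-root signals were under the level of about 51.3 below which a probe set was left out of the tests. It passed that filter on low signals through its sorted-protoplast values. The identifiers of the 3 probe sets do not mark them as sharing probes with other genes, but hybridization of transcripts from related copies of the run was not tested.

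**Figure D1:**
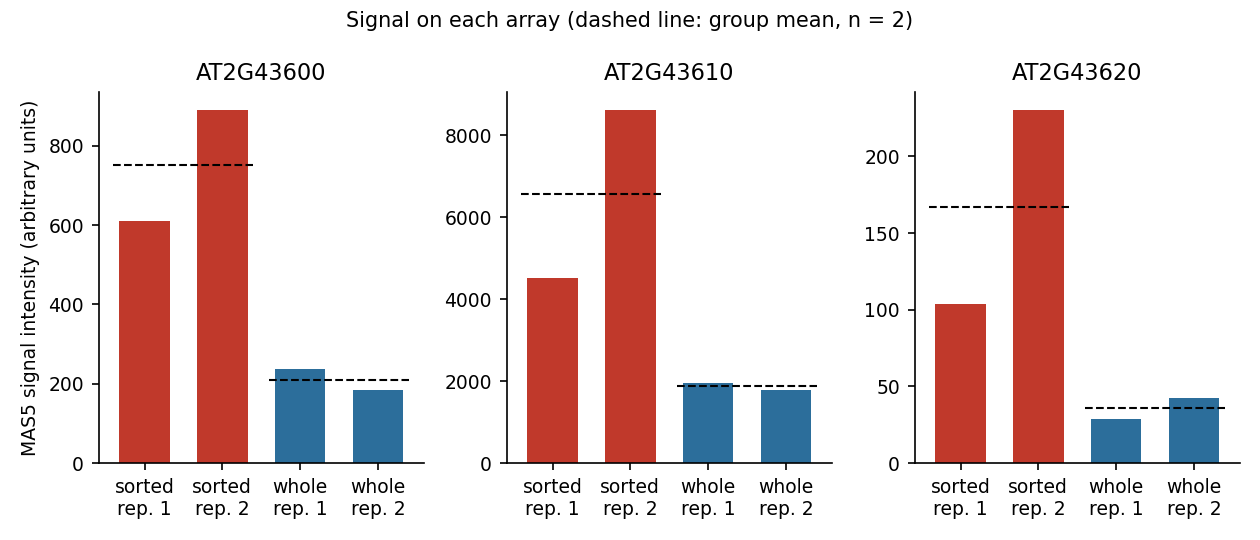
MAS5 signal intensity (arbitrary units, linear axis from 0, a different scale in each panel) of AT2G43600, AT2G43610 and AT2G43620 on the 2 sorted-protoplast arrays (red) and the 2 whole-root arrays (blue), with dashed lines at the group means. In each panel both red bars stand above both blue bars, and sorted-protoplast replicate 2 has the highest signal.

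On the scale of log2(signal + 16), the difference of sorted protoplasts minus whole roots was 1.75 ± 0.37 for AT2G43600, 1.73 ± 0.39 for AT2G43610 and 1.74 ± 0.41 for AT2G43620 (moderated SE of limma's fit over all tested probe sets). Because 16 was added to every signal, the difference of AT2G43620, the gene with signals nearest to that offset, is understated the most. With an offset of 1 the differences were 1.82, 1.73 and 2.10 in the same order, and with an offset of 64 they were 1.56, 1.70 and 1.16, so their near equality holds at the offset of 16 and not at these others. Over all tested probe sets the median difference was -0.16 and the 95th percentile was 1.72, so the 3 differences sat at the edge of the top 5% of the array. Both sorted-protoplast arrays were above both whole-root arrays for 3 of the 3 genes and for 21.5% of all tested probe sets. These genes were chosen with this same contrast in view, so their differences and this count are a description and no test is given for them.

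The sorted-protoplast arrays differed in how far they stood above whole roots. Set against the whole-root mean of each gene, sorted-protoplast replicate 1 was higher by 1.48 on the log2 scale for AT2G43600, by 1.26 for AT2G43610 and by 1.22 for AT2G43620. Sorted-protoplast replicate 2 was higher by 2.01, 2.19 and 2.26 for the genes in the same order. In the authors' scaling the 3 genes were thus higher on each sorted-protoplast array taken alone, and all had their highest signal on replicate 2. The mean log2 spike-in signal was 9.32 on sorted-protoplast replicate 1 and 9.99 on replicate 2. The gap between these arrays therefore depends on the scaling. With the arrays scaled on their hybridization spike-ins in place of the authors' scaling, the median of all tested probe sets moved from -0.16 to -0.57, and the differences became 1.31, 1.27 and 1.35.

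The genes around them had no such common difference. From the TAIR10.1 RefSeq gene order, 16 protein-coding genes run from AT2G43530 to AT2G43670, of which 15 had a single-gene probe set and 10 passed the filter. The non-coding genes AT2G09485 and AT2G09490 lie between AT2G43610 and AT2G43620 and had no single-gene probe set. The chitinase genes just before AT2G43600 did not share its pattern. AT2G43590 had signals of 53.2 and 595 in sorted protoplasts, against 195 and 218 in whole roots, a log2 difference of -0.11 ± 0.79 (95% interval -1.89 to 1.67, limma adjusted p = 0.946).

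CHI had 64.2 and 331 in sorted protoplasts, against 201 and 192 in whole roots, a log2 difference of -0.35 ± 0.59 (95% interval -1.67 to 0.97, limma adjusted p = 0.749). For both genes the sorted-protoplast arrays lay on opposite sides of the whole-root values, so that the fit depends on which of them is used. Without sorted-protoplast replicate 1, AT2G43590 was called higher (1.46, limma adjusted p = 0.0421), and without sorted-protoplast replicate 2 it was called lower (-1.68, limma adjusted p = 0.0155). CHI was at 0.70 (limma adjusted p = 0.351) without replicate 1 and was called lower at -1.41 (limma adjusted p = 0.0412) without replicate 2 of the sorted protoplasts. AT2G43580 was below the filter, with signals of 1.35 and 5.67 in sorted protoplasts and 18.6 and 9.07 in whole roots, near or under the offset throughout.

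The other neighbours, which are not chitinase genes, mostly had lower signals in sorted protoplasts. Of 9 with a single-gene probe set, 8 had both sorted-protoplast arrays below both whole-root arrays. The other 1, AT2G43530, overlapped, with 14.1 and 129 in sorted protoplasts, against 45.0 and 28.4 in whole roots. The count of 8 includes genes below the filter, and no matching share over unfiltered probe sets was computed. Of the 5 tested, 0 rose and 2 fell in limma's test, against 6.38% of all tested probe sets called higher and 4.11% called lower. The same 2 had an unadjusted p under 0.05, both in the lower direction. So did 26.3% of all tested probe sets, both directions together, with 1976 of the 13647 in the lower direction. The groups were apart in the lower direction for 5 of these 5, and for 36.2% of all tested probe sets. AT2G43550 had signals of 44.2 and 30.0 in sorted protoplasts, against 347 and 157 in whole roots, and fell by 2.25 ± 0.42 on the log2 scale (limma adjusted p = 0.00986).

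AT2G43535 had 659 and 940 in sorted protoplasts, against 2159 and 2060 in whole roots, and fell by 1.40 ± 0.36 (limma adjusted p = 0.0373). The call of AT2G43535 was lost without either whole-root array, without sorted-protoplast replicate 1, with no filter and with array medians set equal, and that of AT2G43550 without whole-root replicate 1 and with no filter. AT2G43540 did not pass, at -0.86 ± 0.39. On the other side of the run the gene next to AT2G43620, AT2G43630, had 441 and 447 in sorted protoplasts, against 688 and 551 in whole roots, a difference of -0.46 ± 0.35 that did not pass (limma adjusted p = 0.443). AT2G43640 followed with -0.81 ± 0.40, which did not pass either. Below the filter, AT2G43530 had a difference of 0.34, AT2G43560 of -0.72, AT2G43660 of -1.54 and AT2G43670 of -1.56. The differences between AT2G43600 and AT2G43590 and between AT2G43620 and AT2G43630 were not tested, since the 3 genes were chosen on this contrast.

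**Figure D2:**
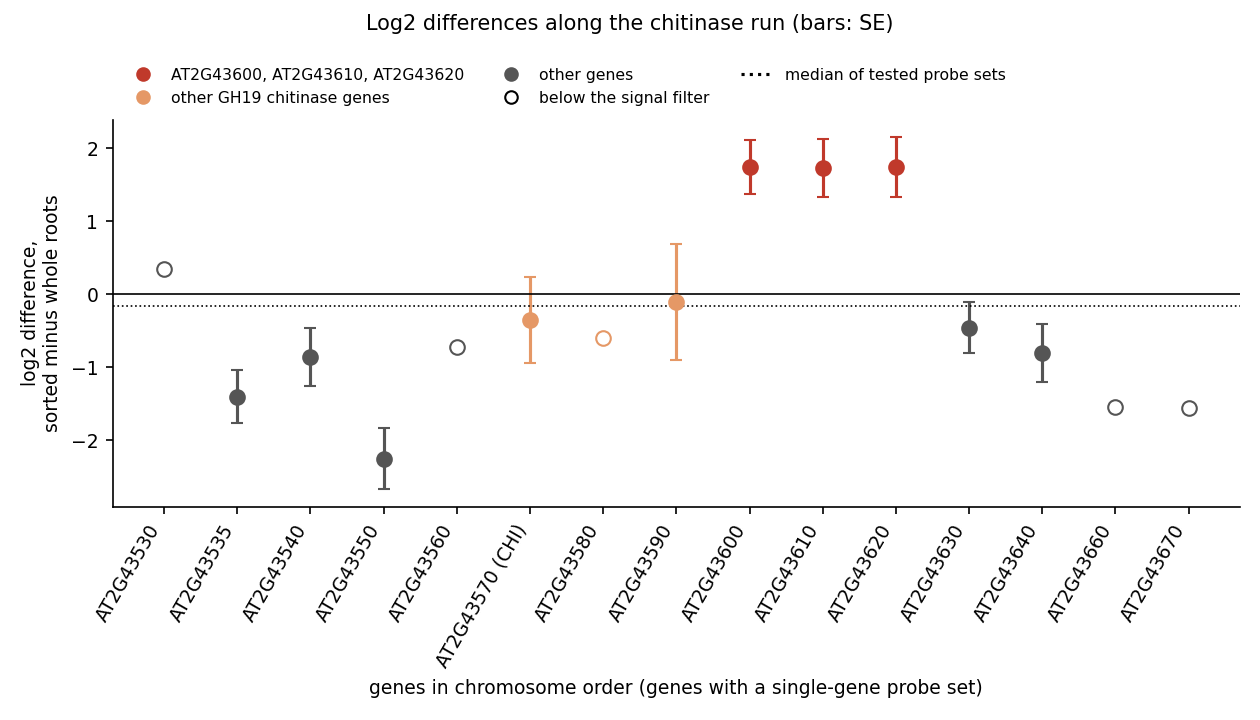
Log2 difference of sorted protoplasts minus whole roots (vertical axis, log2(signal + 16), bars of 1 SE) for the 15 protein-coding genes with a single-gene probe set from AT2G43530 to AT2G43670, in chromosome order. AT2G43600, AT2G43610 and AT2G43620 (red) stand at 1.73 to 1.75, the other chitinase genes of the run (orange) at -0.60 to -0.11, and the other genes (grey) at -2.25 to 0.34, with open symbols for genes below the signal filter.

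Over the remaining chitinase genes, those of the run included, the differences varied from gene to gene. Of the 14 listed GH19 genes 10 had a single-gene probe set, 3 of them the genes described here and 7 others, and of 10 listed GH18 genes 5 had one. Of these other 12 genes, 7 were tested, 1 rose and 0 fell, so that 14.3% were called higher in limma's test, against 6.38% of all tested probe sets. Of the 7, 2 had an unadjusted p under 0.05, both in the higher direction. Over all tested probe sets that share was 26.3%, both directions together, with 1617 of the 13647 in the higher direction. Their median difference was 0.59, against -0.16 over all tested probe sets. Outside the run 5 were tested, of which 1 rose and 0 fell, with a median of 0.60. The gene that rose was AT4G01700, listed in GH19, with signals of 2022 and 5404 in sorted protoplasts, against 545 and 457 in whole roots. It rose by 2.69 ± 0.47 (SE, limma adjusted p = 0.00761). That call was lost without whole-root replicate 1 (2.81, adjusted p = 0.103), without whole-root replicate 2 (2.57, adjusted p = 0.108) and with no signal filter (adjusted p = 0.0538), in limma's test each time.

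AT1G02360, also GH19, had signals of 357 and 2627 in sorted protoplasts, against 616 and 677 in whole roots. Its difference was 0.59 ± 0.73 (limma adjusted p = 0.657), but 2.00 without sorted-protoplast replicate 1 (limma adjusted p = 0.00897) and -0.83 without sorted-protoplast replicate 2 (limma adjusted p = 0.281). The spread between the sorted-protoplast arrays thus decided its direction. AT3G47540 was the opposite case, with 648 and 214 in sorted protoplasts, against 231 and 254 in whole roots. Its difference was 0.60 ± 0.49 (limma adjusted p = 0.473), with -0.17 without sorted-protoplast replicate 1 and 1.36 (limma adjusted p = 0.0586) without sorted-protoplast replicate 2. AT1G56680 had 101 and 72.2 in sorted protoplasts, against 58.0 and 92.4 in whole roots, and its groups overlapped (0.18 ± 0.36).

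The GH18 genes of the list are a separate run of neighbours on another chromosome together with 1 further gene, and most of those measured were dim. AT4G19720 had signals of 88.2 and 122 in sorted protoplasts, against 49.3 and 37.9 in whole roots. Its groups did not overlap, and its difference of 1.01 ± 0.34 did not pass (95% interval 0.25 to 1.77, limma adjusted p = 0.0907). ChiC, a class V chitinase gene, was below the filter, with 14.1 and 65.2 in sorted protoplasts and 56.7 and 62.3 in whole roots. AT4G19730, AT4G19740 and AT4G19820 were also below the filter, with differences of -0.42, -0.12 and -0.73.

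**Figure D3:**
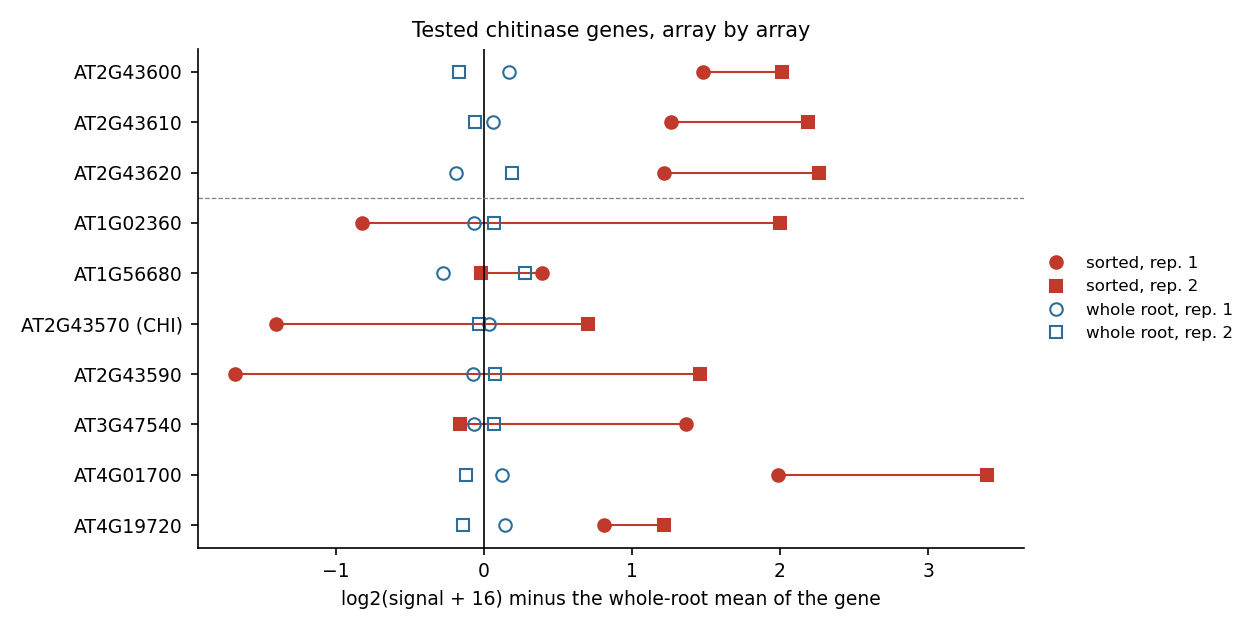
Log2(signal + 16) of the 10 tested chitinase genes on each array, relative to the whole-root mean of the gene (horizontal axis), with sorted-protoplast arrays in filled red and whole-root arrays in open blue symbols, circles for replicate 1 and squares for replicate 2. Both red symbols lie right of both blue ones for AT2G43600, AT2G43610 and AT2G43620 above the dashed line and, below it, for AT4G01700 and AT4G19720. The red symbols of AT1G02360, CHI, AT2G43590 and AT3G47540 lie on either side of the blue ones.

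Genes that sense chitin or act beside chitinases gave mixed counts. Of 17 listed genes of chitin perception and signalling, 2 had a single-gene probe set and 1 was tested. This was BIK1, a receptor-like cytoplasmic kinase of immune signalling, with signals of 388 and 840 in sorted protoplasts, against 78.9 and 132 in whole roots. It rose by 2.31 ± 0.45 (limma adjusted p = 0.0113). The other, AT5G18610, was below the filter, with 19.4 and 21.3 in sorted protoplasts and 3.12 and 6.74 in whole roots. Of 4 tested genes with LysM domains, the fold that binds chitin oligomers in the receptors, 0 passed limma's test and 0 had an unadjusted p under 0.05. Their median was 0.07, and the brightest of them, AT5G62150 and AT1G55000, had differences of 0.08 ± 0.62 and -0.49 ± 0.35. The arrays of AT5G62150 disagreed, with signals of 197 and 841 in sorted protoplasts, against 565 and 264 in whole roots, and its difference was 1.09 without sorted-protoplast replicate 1 and -0.92 without sorted-protoplast replicate 2.

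Beta-1,3-glucanases cut beta-1,3-glucan, another main polymer of many fungal walls, and also callose of the plant. Of 24 tested genes of this family 1 rose and 0 fell in limma's test, and the median was -0.15, against -0.16 over all tested probe sets. An unadjusted p under 0.05 was found for 10 of them (41.7%, 5 higher and 5 lower), against 26.3% of all tested probe sets. AT4G18340 rose by 2.50 ± 0.44 (limma adjusted p = 0.00763), with signals of 785 and 372 in sorted protoplasts, against 62.5 and 107 in whole roots. Unlike the chitinase genes of the run, it had its highest signal on sorted-protoplast replicate 1 in the authors' scaling. Of 7 tested genes of pathogenesis-related and thaumatin-like proteins 1 rose and 1 fell, with a median of 0.10. An unadjusted p under 0.05 was found for 4 of them, higher and lower ones included, against 26.3% of all tested probe sets.

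AT1G77700, listed as thaumatin-like, had 312 and 319 in sorted protoplasts, against 71.0 and 115 in whole roots, and rose by 1.63 ± 0.36 (limma adjusted p = 0.0210). OSM34, an osmotin-like gene of the same family, fell by 2.13 ± 0.51 (limma adjusted p = 0.0282). Its signals were 20.2 and 92.8 in sorted protoplasts, against 208 and 320 in whole roots. Of 6 tested regulators listed as responsive to chitin 5 rose and 0 fell, with a median of 2.67. The largest rises were those of the transcription factor gene WRKY22 (4.10 ± 0.44, limma adjusted p = 0.000790) and the ubiquitin ligase gene PUB23 (3.21 ± 0.51, limma adjusted p = 0.00444). This list was drawn up with those rises known and is not independent evidence of a direction. Over the other 4 lists together 3 of 36 tested genes rose (8.33%) and 1 fell, against 6.38% and 4.11% of all tested probe sets. These calls, of BIK1, AT4G18340, AT1G77700 and OSM34, were lost without either whole-root array and when no filter was applied. Calls were lost for BIK1 and AT1G77700 also under spike-in scaling and for OSM34 also without sorted-protoplast replicate 1, and that of PUB23 was lost without whole-root replicate 1. WRKY22 kept its call in all of these settings.

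**Figure D4:**
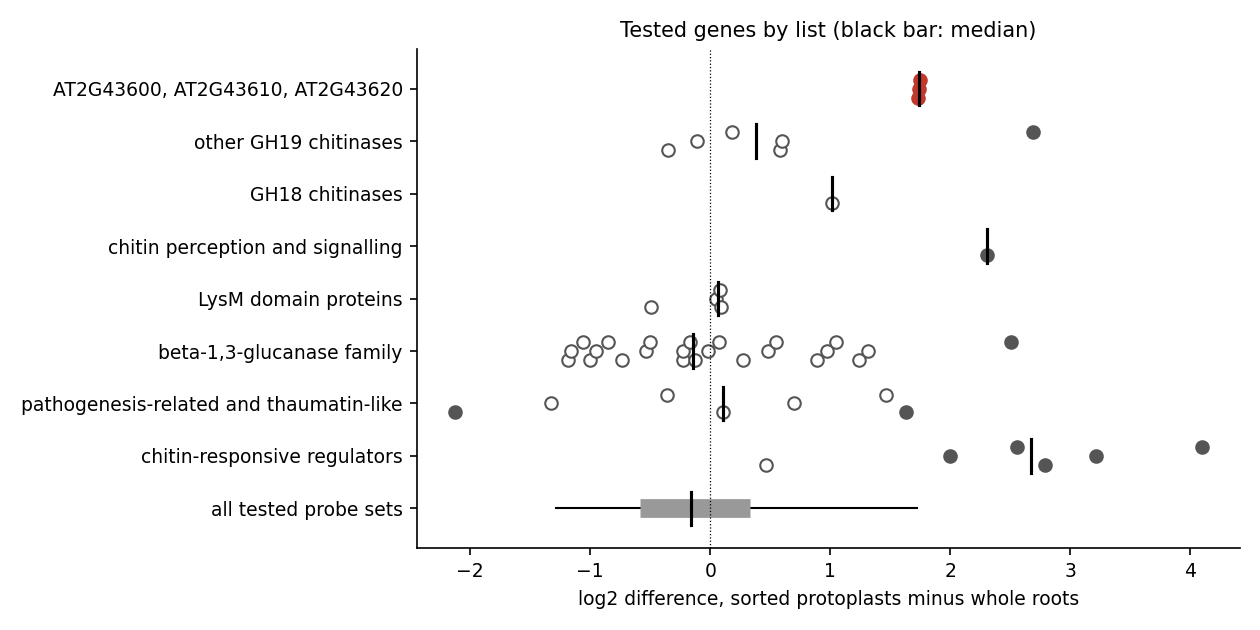
Log2 difference of sorted protoplasts minus whole roots (horizontal axis) for tested genes by list, with filled grey circles for genes called by limma, open circles for those not called and black bars at the medians. AT2G43600, AT2G43610 and AT2G43620 (red) lie together at the top at 1.73 to 1.75, and the bottom row shows all 13647 tested probe sets with a median of -0.16, a grey box from the 25th to the 75th percentile (-0.58 to 0.33) and a line from the 5th to the 95th (-1.29 to 1.72).

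Likeness to each chitinase gene was measured over the 4 arrays as the root mean square difference of log2 values after each gene was centred on its own mean, among 7337 other tested single-gene probe sets. For AT2G43600 the nearest were AT5G18310 (0.040), AT4G22470 (0.055) and AT5G51520 (0.060). For AT2G43610 they were AT3G46930 (0.064), AT2G31370, also named PosF21 (0.075), and ndhD, a plastid gene of the NDH complex (0.087). The ndhD signals were 409 and 801 in sorted protoplasts, against 156 and 132 in whole roots. For AT2G43620 the nearest were AT4G01090 (0.045), AT5G66650 (0.077) and AT1G69890 (0.089).

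The 3 chitinase genes were close to each other but not each other's nearest. AT2G43610 ranked 23 in likeness to AT2G43600, at 0.16, and AT2G43620 ranked 121, at 0.31. Seen from AT2G43610, AT2G43600 ranked 18 and AT2G43620 ranked 29. Seen from AT2G43620, AT2G43610 ranked 24 and AT2G43600 ranked 90. The whole-root arrays account for part of this distance, since AT2G43620 was higher on whole-root replicate 2 and AT2G43600 and AT2G43610 were higher on replicate 1. The 3 genes were chosen on the contrast between the groups, and this distance includes that contrast. Their closeness and ranks therefore follow in part from the choice. Their differences were not near equal at the other offsets, where likeness was not measured. With 4 arrays these distances and ranks describe the arrays and carry no test.

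Markers of several root cell types also differed between the groups, and in bulk RNA fewer cells of a type cannot be told apart from less RNA per cell. Of 8 root cap and cell death markers 2 had a single-gene probe set. Their summed signal was 8076 and 8919 in sorted protoplasts, against 2083 and 2036 in whole roots. Both rose, by 2.27 ± 0.36 for AT4G04460, a protease gene, and by 1.96 ± 0.34 for scpl48, which has the name of a serine carboxypeptidase. Of 4 root hair markers 2 had one, EXPA7 and EXPA18, which both fell, with a summed signal of 282 and 372 in sorted protoplasts, against 1348 and 1812 in whole roots.

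Of 7 xylem markers 1 had a single-gene probe set, IRX15. It rose by 1.46 ± 0.37, with signals of 218 and 128 in sorted protoplasts, against 54.8 and 47.2 in whole roots. The 2 cortex markers summed to 36.2 and 49.6 in sorted protoplasts, against 172 and 96.9 in whole roots. The tested one, AT1G09750, had a difference of -1.39 ± 0.40 that did not pass (limma adjusted p = 0.0584). It was called lower without sorted-protoplast replicate 2 (-1.81, limma adjusted p = 0.00817), under spike-in scaling (-1.75, adjusted p = 0.0157) and with the replicate number as a block (adjusted p = 0.0138). The 2 stele markers measured, LHW and PHV, summed to 413 and 274 in sorted protoplasts, against 258 and 287 in whole roots, and 0 of them passed. The 2 shoot photosynthesis genes measured, LHCB4.1 and RCA, summed to 279 and 142 in sorted protoplasts, against 320 and 437 in whole roots, and 0 passed. LHCB4.1 had a difference of -0.97 ± 0.46, which was -1.62 and called without sorted-protoplast replicate 1 (limma adjusted p = 0.0233) and -0.32 without sorted-protoplast replicate 2. The calls of IRX15, of both root hair and of both root cap markers were lost without either whole-root array, those of IRX15 and EXPA7 also when no filter was applied, those of IRX15 and AT4G04460 also under spike-in scaling, and that of IRX15 also without sorted-protoplast replicate 1. The other cortex marker, AT1G62500, was below the filter, with signals of 17.5 and 2.87 in sorted protoplasts, against 32.8 and 16.9 in whole roots. Of 8 endodermis markers and of 3 phloem markers, 0 had a single-gene probe set in the platform annotation. Since 8730 probe sets were absent from that annotation, the array may still carry probes for these markers. The part of these cell types in the values of the 3 chitinase genes was not tested.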

How the data were processed

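The authors deposited linear signal intensities, with 1 value for each probe set of an array. Per the submitters' processing notes they are MAS5 values. The trimmed mean (2% left out at each end) was 250.02 to 250.03 on every array. Sample titles gave the groups and replicate numbers, and 0 columns were left unmapped. Of 22810 probe sets 64 are controls. Of the others 13513 had 1 gene in the platform annotation, 503 had several and 8730 were absent from it. Of the 13513, 13436 matched the TAIR10.1 RefSeq gene table. No build is named for the array, so no coordinates are given.

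Values were transformed as log2(signal + 16). Controls were removed, as was the dimmest 40% of the rest by mean, and 13647 probe sets were fitted in R 4.3.3 by lmFit and eBayes of limma 3.58.1, using a trended prior (2 residual and 7.56 prior degrees of freedom). Adjusted p-values are Benjamini-Hochberg's over all of them, with a threshold of 0.05. The script was tested on simulated data.

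The 3 genes, the lists and the naming rule were chosen with earlier results of these data known. Family membership was set from background knowledge of the loci. Every GH19, GH18 and neighbouring gene with a single-gene probe set is named, as are the 3 genes most alike each chitinase gene. For other lists, the genes with the largest rise and fall past the threshold are named. They are the 2 largest if the calls shared a direction, or the 2 brightest if there were no calls. AT5G18610 was added once its values had been seen. The brightest probe set stood for a gene. Alternatives were other offsets, scalings, filters, prior variances and thresholds, a replicate block, leaving out probe sets with shared probes and each array left out. Deviations of same-numbered samples correlated at -0.156.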

Additional observations from a re-analysis of the deposited data

How the results depend on the processing

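The differences of the 3 chitinase genes stayed above 1 under every alternative run on them. When any one array was dropped they ranged from 1.48 to 2.01 for AT2G43600, from 1.26 to 2.19 for AT2G43610 and from 1.22 to 2.26 for AT2G43620. AT2G43600 moved to 1.31 with spike-in scaling and AT2G43620 to 1.16 with an offset of 64, which shrinks dim genes by construction. Spike-in scaling gave SEs of 0.69 for AT2G43600, 0.41 for AT2G43610 and 0.55 for AT2G43620. In the main fit these were 0.37, 0.39 and 0.41. Of all probe sets 870 were called higher and 561 lower, and these became 394 and 137 with no filter, 393 and 107 at an adjusted p under 0.01, and 421 and 680 under spike-in scaling. Higher calls made up 60.8% with the authors' scaling, 70.6% when array medians were set equal and 38.2% under spike-in scaling. Dropping any one array gave 167 to 989 higher and 25 to 649 lower calls, with 192 and 54 without whole-root replicate 1 and 167 and 25 without whole-root replicate 2. Of the other chitinase genes 1 was called higher and 0 lower. This became 0 higher with no filter in limma's test, where AT4G01700 had an adjusted p of 0.0538. With any one array dropped the counts were 0 to 3 higher and 0 to 2 lower, at 3 higher without sorted-protoplast replicate 1, 2 lower without sorted-protoplast replicate 2 and 0 of either without each whole-root array. AT2G43590 was at 1.46 without sorted-protoplast replicate 1 and at -1.68 without sorted-protoplast replicate 2, called in opposite directions. Of the related list genes 8 were higher and 1 lower, against 4 and 0 without a filter, 5 and 2 under spike-in scaling, 9 and 3 with quantile normalization, 6 and 0 at an adjusted p under 0.01, and 1 to 10 and 0 to 3 with an array dropped, lowest without a whole-root array. For the 30 other named genes tested, 450 refits left direction and call as they were in 381, ended a call in 47, added one in 8, turned the sign of an uncalled gene in 13 and gave a call in the opposite direction in 1. Where no construction is named, the cause was not tested.

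Replicates share only a number. With that number as a replicate block there were 1123 higher and 787 lower calls, 11 and 2 among related list genes and 1 and 0 among other chitinase genes, and the 3 differences were unchanged, with SEs of 0.45, 0.51 and 0.44. Crossed replicate numbers, added after seeing the data, gave 1137 higher and 922 lower, with 11 and 4 among related list genes. Low signal limits dim genes such as AT2G43620, whose whole-root signals of 29.0 and 42.6 were above the offset of 16 but not far from it. Of the signals of an array, 19.7% to 22.1% fell under that offset.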

Other observations

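Several chitinase genes had large gaps between the sorted-protoplast arrays, a pattern noticed after the values had been seen. Sorted-protoplast replicate 2 was higher than replicate 1 for 44.7% of all tested probe sets, with a median log2 difference of -0.07 between them and a median absolute difference of 0.39. It was higher for 5 of the other 7 tested chitinase genes, with a median of 1.41. The gaps were 3.14 for AT2G43590, 2.83 for AT1G02360, 2.11 for CHI and 1.41 for AT4G01700, while AT4G19720 had one of 0.40, AT1G56680 of -0.41 and AT3G47540 of -1.53. For AT2G43600, AT2G43610 and AT2G43620 the gaps were 0.53, 0.93 and 1.04, within the range of the others. Among beta-1,3-glucanase genes replicate 2 was higher for 9 of 24, with a median of -0.20. On the whole-root arrays, where the median absolute gap of all tested probe sets was 0.36, replicate 2 minus replicate 1 was 0.15 for AT2G43590, 0.13 for AT1G02360, -0.06 for CHI, -0.25 for AT4G01700, -0.28 for AT4G19720, 0.55 for AT1G56680 and 0.13 for AT3G47540. It was -0.34 for AT2G43600, -0.12 for AT2G43610 and 0.38 for AT2G43620. All these gaps are in the authors' scaling and depend on it. Mean log2 spike-in signals were 9.32 and 9.99 on sorted-protoplast replicates 1 and 2, and 9.42 and 8.96 on whole-root replicates 1 and 2. No test was run on these gaps.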
